A study of Mus musculus with 21 samples.

Results

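The genes described here encode the neuropeptides PACAP (Adcyap1), VIP (Vip), urocortin (Ucn) and corticotropin-releasing hormone (Crh), the receptors Adcyap1r1, Vipr1, Vipr2 and Crhr1, and the CRH-binding protein (Crhbp). They were taken by gene symbol, and 9 of 9 were found among the 22040 genes listed in at least 1 of the 4 deposited tables. All but Ucn were among the 19399 genes listed in all 4 tables.

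PACAP and VIP are related peptides that act on a shared group of G protein-coupled receptors. Adcyap1r1 encodes the PAC1 receptor, which prefers PACAP, whereas the receptors encoded by Vipr1 and Vipr2 bind PACAP and VIP alike. CRH and urocortin act on the CRH receptor encoded by Crhr1, and the secreted CRH-binding protein holds both peptides away from it. These receptors couple mainly to Gs, which drives adenylyl cyclase, cAMP and protein kinase A. In cortex, Vip and Crh transcripts mark sets of GABA neurons, and Adcyap1 is mostly a gene of excitatory neurons.

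RNA was sequenced from 21 cultures of primary cortical neurons, prepared from newborn mice and exposed to AraC against glia. Tau neurons carried the transgene hTau P301S and were seeded with pre-formed tau fibrils (3 μg/mL) on day 7, then kept for 18 days. WT neurons were wildtype. The labels and methods give the fibrils to the transgenic neurons, while a sentence of the paper's results can be read as seeding of both genotypes. If WT cultures were not seeded, the transgene and the fibrils cannot be told apart. Cultures received AdipoRon, an agonist of adiponectin receptors, or its vehicle DMSO for 24 h, giving 5 Tau DMSO, 5 Tau AdipoRon, 5 WT DMSO and 6 WT AdipoRon samples. The paper's reporting summary states that the treatments were applied to samples of the same animal. AdipoRon and DMSO cultures may therefore share animals, but the sample titles name no animal. The paper's rule of repeated independent sessions leaves out the RNA sequencing. The dose was 10 μM in the sample tags and the methods, and 10 mM in the treatment protocol of the labels. The paper names the prion promoter as the driver of the transgene.

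Each table gives one mean per gene, in log2 CPM (read counts scaled to library size), over all samples of the groups it compares. These pooled means are called the DMSO pair (Tau DMSO and WT DMSO, 10 samples), the AdipoRon pair (Tau AdipoRon and WT AdipoRon, 11 samples), the Tau pair (Tau DMSO and Tau AdipoRon, 10 samples) and the WT pair (WT DMSO and WT AdipoRon, 11 samples). No single-culture values were used, so the tables give no depth per library, no pooled mean has an error, and no difference below was tested. Differences past 2-fold (1 on the log2 scale) were counted as a rule of size. The tables may have been normalized separately, and the median difference over all genes was 0.02 between the AdipoRon and DMSO pairs and 0.00 between the Tau and WT pairs.

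Neuron markers were high in all 4 pooled means, with summed levels of 11.57 to 11.75 (log2 CPM) over 6 genes. The summed level of 4 astrocyte markers, led by Gfap, was 11.70 to 11.84, so the cultures labelled as neurons also held astrocyte RNA. Microglia markers reached 5.53 to 6.50 over 4 genes. Of the endothelial markers, Pecam1 was at a log2 CPM of -1.02 to -0.98 and Cldn5 was not analysed here.

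The promoters of Adcyap1, Vip and Ucn are shown because all of them hold the core of a cAMP response element (CRE), the site bound by CREB, downstream of the kinase that these peptide receptors activate. Capitals mark the 8 bases that begin with the core, and each stretch runs 5′ to 3′ on the strand of the gene (RefSeq, GRCm38.p6). The Vip and Ucn stretches lie upstream of the gene, and the Adcyap1 stretch lies inside its annotated span.
Adcyap1, chr17:93198915-93198944, + strand: gactaggatgcTGACGTCTtttactgatac
Vip, chr10:5639109-5639176, + strand: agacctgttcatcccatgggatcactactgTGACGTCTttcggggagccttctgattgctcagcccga
Ucn, chr5:31138902-31138969, - strand: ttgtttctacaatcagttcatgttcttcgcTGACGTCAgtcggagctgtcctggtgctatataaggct

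In Adcyap1 the capitals begin 91 bases before the nearer of the 2 starts that have a promoter window, but 681 bases after the first annotated base of the gene. They begin 79 bases before the start used for the window in Vip and 44 bases before it in Ucn. Only the Ucn stretch reads the full palindrome TGACGTCA, which was found in 1.79% of the 32851 promoter windows of the reference (250 bases before to 50 after a start, both strands searched). The core TGACG, which is part of the palindrome, occurred in 20.8% of those windows. Crhbp and Vipr1 held the core on the reverse strand, 64 and 13 bases before the starts used for their windows, so that 5 of the 8 members with a window had it. This count is by gene and the share of 20.8% is by window, and the 8 members have 9 windows. The AP-1 letters TGANTCA were found in no member and in 7.81% of all windows. Adcyap1r1, Vipr2 and Crhr1 had none of these letters in their windows, and a window for Crh was not used here. A match describes letters in a window and says nothing of binding.

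Adcyap1 (chr17:93198245-93206541, GRCm38.p6), which encodes the PACAP precursor, had a pooled mean of 5.10 (log2 CPM) in the DMSO pair and 0.50 in the AdipoRon pair. In CPM these were 34.2 and 1.42. The AdipoRon pair was thus lower by a log2 difference of -4.59, a 24.1-fold difference of means, and only 1 of the 19693 genes listed in both tables had a lower value. The Tau pair stood at 4.34 and the WT pair at 3.86 (log2 CPM). Both lay between the DMSO and AdipoRon pairs.

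Vip (chr10:5639193-5647617) encodes VIP, and its pooled mean was 5.57 in the DMSO pair and 3.37 in the AdipoRon pair (log2 CPM). The difference was -2.20 on the log2 scale, which is 4.60-fold. The Tau and WT pairs were almost equal, at 4.82 each, and differed by 0.00.

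Crh (chr3:19693401-19695396), the gene of corticotropin-releasing hormone, had 2.76 in the DMSO pair and -0.35 in the AdipoRon pair (log2 CPM), or 6.77 against 0.783 CPM. This log2 difference of -3.11 is 8.65-fold, and it was the 8th lowest of 19693 genes. The Tau pair had 1.98 and the WT pair 1.77. Both lay between the DMSO and AdipoRon pairs. They mix DMSO-treated and AdipoRon-treated samples, so they are no separate evidence on AdipoRon.

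Ucn (chr5:31137989-31138895), which encodes urocortin, was listed in the DMSO and WT tables alone. Its pooled mean was -0.67 in the DMSO pair and -1.71 in the WT pair (log2 CPM), or 0.629 and 0.305 CPM. These means share the 5 WT DMSO samples. Ucn was not analysed here in the Tau and AdipoRon pairs, so it enters no difference between pairs.

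Crhbp (chr13:95431376-95444831), the gene of the binding protein, was also lower in the AdipoRon pair than in the DMSO pair. Unlike that of Adcyap1, Crh and Vip, its direction within each genotype was not settled (below). Its pooled means were 6.13 in the DMSO pair, 5.57 in the Tau pair, 5.46 in the WT pair and 4.53 in the AdipoRon pair (log2 CPM). Between the AdipoRon and DMSO pairs the log2 difference was -1.60, a 3.03-fold lower mean.

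The receptors spanned a narrower range. For Adcyap1r1 (chr6:55451501-55501455) the order was the opposite one, with 7.01 in the DMSO pair, 7.41 in the Tau pair, 7.58 in the WT pair and 7.83 in the AdipoRon pair (log2 CPM). The log2 difference of 0.82 between the AdipoRon and DMSO pairs is 1.77-fold and did not reach the 2-fold size, and it was the 237th highest of 19693. The 4 astrocyte markers, which could share this receptor's cells, differed by -0.24 to 0.42 on the same scale, and their part in the value of Adcyap1r1 was not tested.

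Crhr1 (chr11:104130463-104175523), the receptor of CRH and urocortin, had 4.11 in the DMSO pair, 4.07 in the Tau pair, 3.73 in the WT pair and 3.66 in the AdipoRon pair (log2 CPM), a log2 difference of -0.45 between the AdipoRon and DMSO pairs. Vipr1 (chr9:121642716-121672954) ranged from 4.12 in the WT pair to 4.42 in the Tau pair, and Vipr2 (chr12:116077420-116148637) from 2.22 to 2.26. Their AdipoRon differences were -0.09 and 0.03 (log2), close to the median of all genes.

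**Figure D1:**
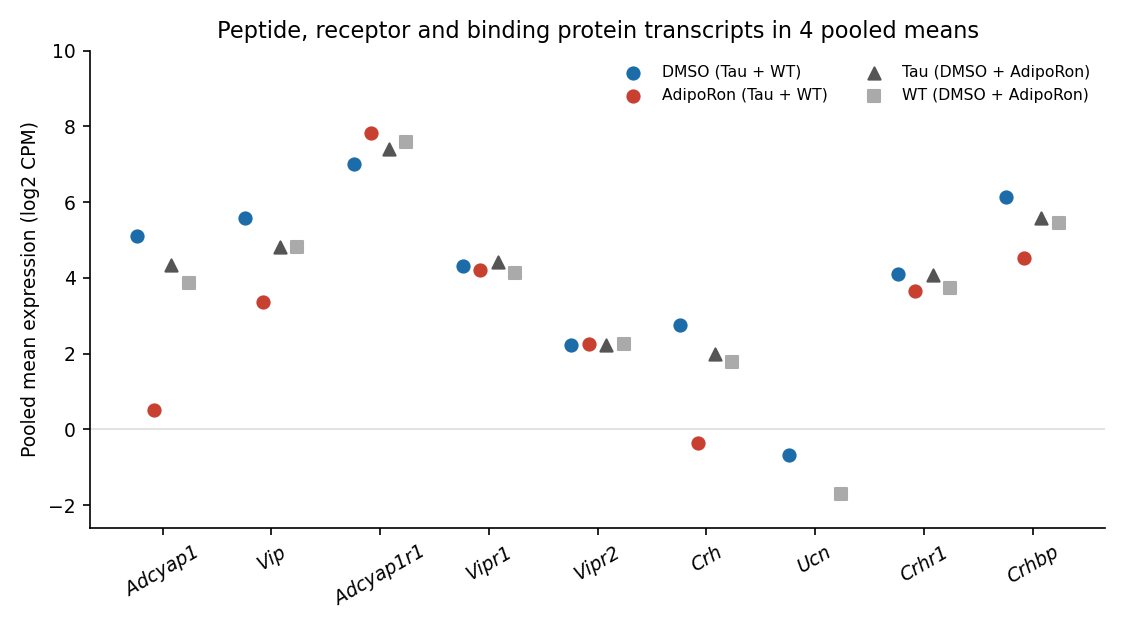
Pooled mean expression (log2 CPM) of the 9 genes, with circles for the DMSO and AdipoRon pairs, triangles for the Tau pair and squares for the WT pair. Circles lie far apart for Adcyap1 (5.10 and 0.50) and Crh (2.76 and -0.35) and almost coincide for Vipr2, and Ucn has only the DMSO and WT means.

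In all, 4 of the 8 members listed in both tables had a lower mean in the AdipoRon pair past 2-fold (Adcyap1, Crh, Vip and Crhbp), and 0 had a higher one. Over all 19693 genes the shares past 2-fold were 1.75% lower and 0.675% higher. The symbols had been chosen by the AdipoRon responses of some of them in these same tables, so their count is a description. Their median log2 difference was -1.03, and that of all genes was 0.02.

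**Figure D2:**
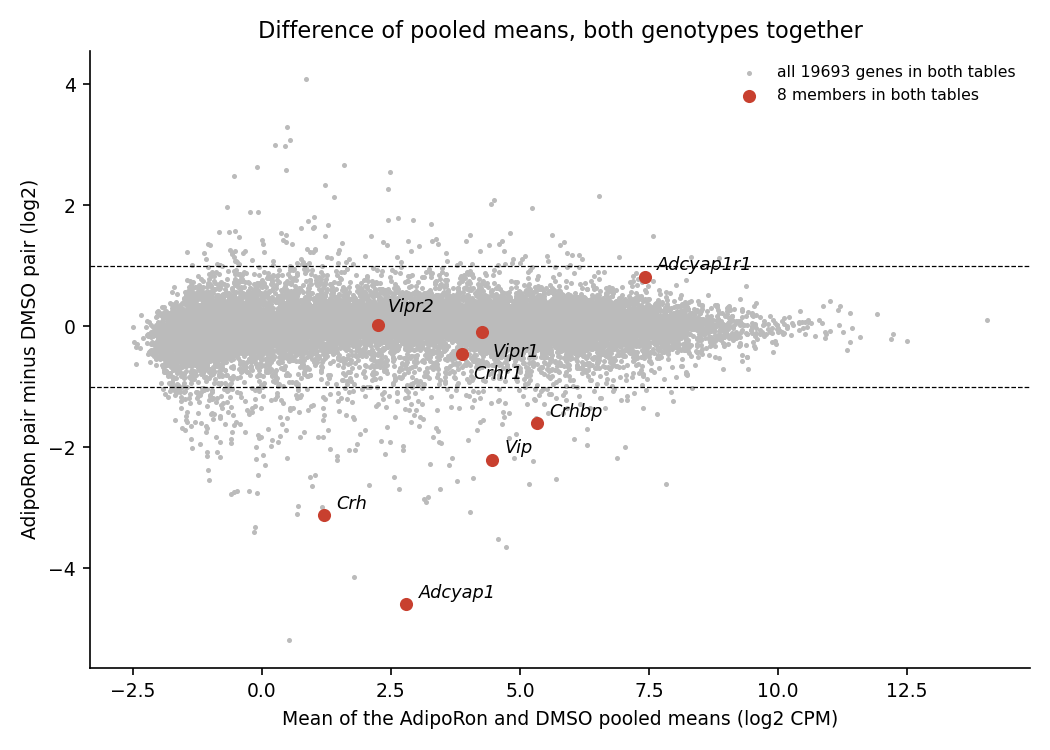
Difference of the AdipoRon and DMSO pooled means (log2, vertical axis) against their average (log2 CPM, horizontal axis) for 19693 genes in grey and 8 members in red, with dashed lines at 2-fold. Adcyap1 at -4.59, Crh at -3.11, Vip at -2.20 and Crhbp at -1.60 lie under the lower line, and Adcyap1r1 at 0.82 lies just under the upper one.

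The peptide differences were set beside markers of neurons and GABA neurons, which do not single out the cells that make each peptide. In bulk RNA, fewer cells of a type and less RNA per cell cannot be told apart. Of 8 markers of GABA neurons, 0 passed 2-fold between the AdipoRon and DMSO pairs, with a median log2 difference of -0.18 and a range from -0.74 (Npy) to 0.13 (Pvalb). Over all genes, 1.75% were lower and 0.675% higher past 2-fold. Gad1 and Gad2, which make GABA, differed by -0.28 and -0.22 (log2). The 6 neuron markers ranged from -0.29 (Snap25) to 0.11 (Slc17a7, the vesicular glutamate transporter of excitatory neurons). Adcyap1, Crh and Vip differed more than any of these 14 markers, but some members had been chosen by their AdipoRon responses. Markers of whole classes can stay level when a small subset of cells changes. The part of cell numbers in the peptide differences was therefore not tested.

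Between the Tau and WT pairs, 0 of the 8 members passed 2-fold in either direction, and over 19890 genes the shares were 0.126% higher and 0.508% lower in the Tau pair. Adcyap1 had the largest difference of the members, at 0.49 (log2), or 1.40-fold higher in the Tau pair. Crhr1 followed at 0.34 and Vipr1 at 0.30. Crh was higher by 0.21 and Crhbp by 0.11, while Adcyap1r1 was lower by a log2 difference of -0.17. The WT pair held 6 treated samples of 11 and the Tau pair 5 of 10, which by itself lowers the WT mean of a gene that is lower with AdipoRon. The part of this imbalance in the members' differences was not tested. All 6 neuron markers were higher in the Tau pair, from 0.07 (Tubb3) to 0.33 (Slc17a7) on the log2 scale. Of 8 GABA neuron markers 7 were lower, and the list ranged from -0.20 (Calb2) to 0.02 (Gad2). Microglia markers were lower in the Tau pair, from -0.42 (P2ry12) to -1.41 (Aif1) on the log2 scale. The part of neurons or microglia in the members' differences was not tested.

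Because each group enters 2 pooled means and no group can have a mean under 0, the 4 values of a gene also limit the mean of each group. The limits take each pooled mean as an average over samples, and other weights move them. For Adcyap1 they were narrow. The mean of Tau DMSO lay between 37.2 and 40.3 CPM and that of WT DMSO between 28.5 and 31.6 CPM. Tau AdipoRon had at most 3.14 CPM and WT AdipoRon at most 2.62 CPM. The DMSO mean was then 11.8-fold or more above the AdipoRon mean in Tau neurons, and 10.9-fold or more in WT neurons. With groups weighted equally, both AdipoRon groups had at most 2.80 CPM, and the smallest ratios were 13.6 in Tau and 9.45 in WT neurons. Under DMSO the ranges of the genotypes did not overlap, with Tau the higher, but they are ranges of means and carry no replicate error.

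For Crh, Tau DMSO lay between 6.13 and 7.85 CPM and WT DMSO between 5.74 and 7.47 CPM, ranges that overlap. AdipoRon-treated Tau neurons had at most 1.73 CPM and WT neurons at most 1.44 CPM, which puts the DMSO mean 3.54-fold or more above AdipoRon in Tau and 3.99-fold or more in WT neurons.

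The Vip mean lay between 33.6 and 56.4 CPM in Tau DMSO and between 39.0 and 61.8 CPM in WT DMSO. With AdipoRon it was at most 22.8 CPM in Tau and 19.0 CPM in WT neurons. The smallest ratio of DMSO to AdipoRon that these allow was 1.47 in Tau and 2.05 in WT neurons. Taking pooled means as averages over samples, the mean of Vip was thus lower with AdipoRon in each genotype. These ratios carry no replicate error.

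For Crhbp the smallest ratio of DMSO to AdipoRon in WT neurons was 1.08, and 0.939 with all groups weighted equally, so that its direction was not settled. In Tau neurons the corresponding ratios were 0.861 and 1.09, with Tau DMSO between 43.9 and 94.8 CPM and Tau AdipoRon at most 50.9 CPM. The ranges of Adcyap1r1, Crhr1, Vipr1 and Vipr2 overlapped between DMSO and AdipoRon in both genotypes and gave no direction within a genotype. From the Ucn values, Tau DMSO lay between 0.586 and 1.26 CPM, WT DMSO reached at most 0.672 CPM and WT AdipoRon at most 0.560 CPM. The prior count in these means is not known. It is at most the lowest listed value, 0.178 CPM in the DMSO pair and 0.116 CPM in the WT pair, and Ucn was above these. With these largest prior counts subtracted, the limits were 0.484 to 0.902, 0.418 and 0.348 CPM.

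**Figure D3:**
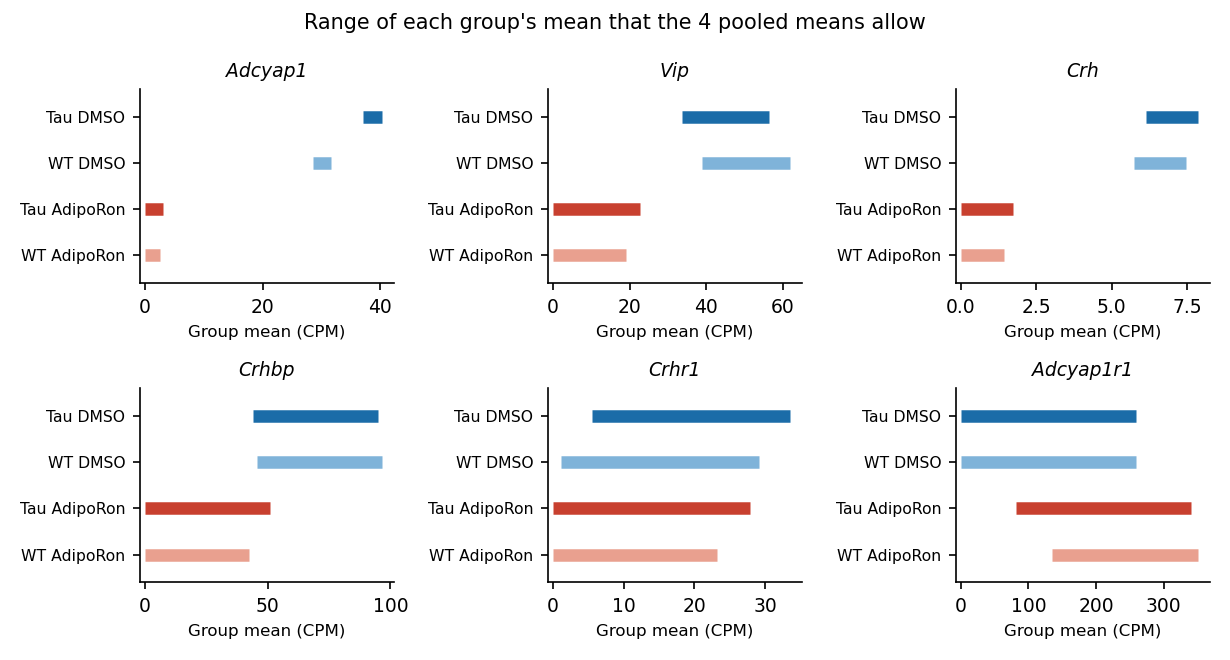
Bars span the lowest to the highest mean (CPM) that the 4 pooled means allow for Tau DMSO, WT DMSO, Tau AdipoRon and WT AdipoRon, for 6 members. DMSO and AdipoRon bars are apart in both genotypes for Adcyap1, Vip and Crh, and overlap for Crhr1 and Adcyap1r1.

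Levels of different genes were compared only per length, as log2 CPM per kilobase of the median annotated transcript. In the DMSO pair, Crhbp (5.00), Vip (4.92) and Adcyap1r1 (4.38) led, followed by Adcyap1 (3.25), Crhr1 (2.77), Crh (2.26), Vipr1 (2.03), Vipr2 (0.53) and Ucn (0.08). No spread over samples was available to say which neighbours in this order differ. In the AdipoRon pair Adcyap1r1 came first, at 5.20, and Adcyap1 last of the 8 listed members, at -1.34 (log2 CPM per kilobase). PACAP transcripts were thus 4th of 9 in the one mean and 8th of 8 in the other.

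The genes whose pooled means were most like those of Adcyap1 were sought among 8024 genes of similar level (mean log2 CPM within 2). Likeness was the distance over 4 pooled means, each profile centred on its own average, and these means rest on shared samples. The nearest were Lyve1 (distance 0.54), Nptx2 (0.80), Kcnv1 (0.90), Crh (1.23) and Pcsk1 (1.26). Pcsk1 encodes prohormone convertase 1, an enzyme that cuts neuropeptide precursors, and Nptx2 encodes the synaptic protein neuronal pentraxin 2. The AdipoRon differences were -4.14 for Lyve1, -3.65 for Nptx2, -3.51 for Kcnv1 and -3.07 for Pcsk1 (log2). The search used these same pooled means, so large negative differences follow from it and are a description.

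Downstream of the receptors, 32 genes of the Gs, adenylyl cyclase, protein kinase A and CREB pathway were all listed. Between the AdipoRon and DMSO pairs, 2 had a lower mean past 2-fold and 0 a higher one, with a median log2 difference of -0.03. The shares over all genes were 1.75% lower and 0.675% higher. Adcy8, a calcium-stimulated adenylyl cyclase of neurons, had 4.25 in the DMSO pair and 3.10 in the AdipoRon pair (log2 CPM), a log2 difference of -1.15. The cAMP phosphodiesterase gene Pde4c was scarce, at 0.12 and -0.98 (log2 CPM), and differed by -1.09. Gnas, which encodes the Gs α subunit, stayed near 10.2 in every pooled mean, and Creb1 differed by 0.04 (log2). None of the 32 passed 2-fold between the Tau and WT pairs, where the shares over all genes were 0.126% higher and 0.508% lower.

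Among related class B receptors, their ligands and accessory proteins, 17 of 27 genes were listed in the AdipoRon and DMSO tables. Past 2-fold, 3 had a lower mean in the AdipoRon pair and 1 a higher one, and the median log2 difference was -0.14. Over all genes the shares were 1.75% lower and 0.675% higher. Pth2r, a receptor of the parathyroid hormone family, had 2.25 in the DMSO and -0.20 in the AdipoRon pair (log2 CPM), a log2 difference of -2.45. Ramp3, a receptor partner for adrenomedullin and amylin, differed by -1.91, and the adrenomedullin relative Adm2 lay just past the 2-fold size, at 1.58 in the AdipoRon and 2.58 in the DMSO pair (log2 CPM). Glp2r, the receptor of glucagon-like peptide 2, had the higher mean with AdipoRon, at 1.83 against 0.18 (log2 CPM). Crhr2, the other CRH receptor, was scarce throughout, from -1.82 to -1.69 (log2 CPM), and Ucn2 and Ucn3 were not analysed here.

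**Figure D4:**
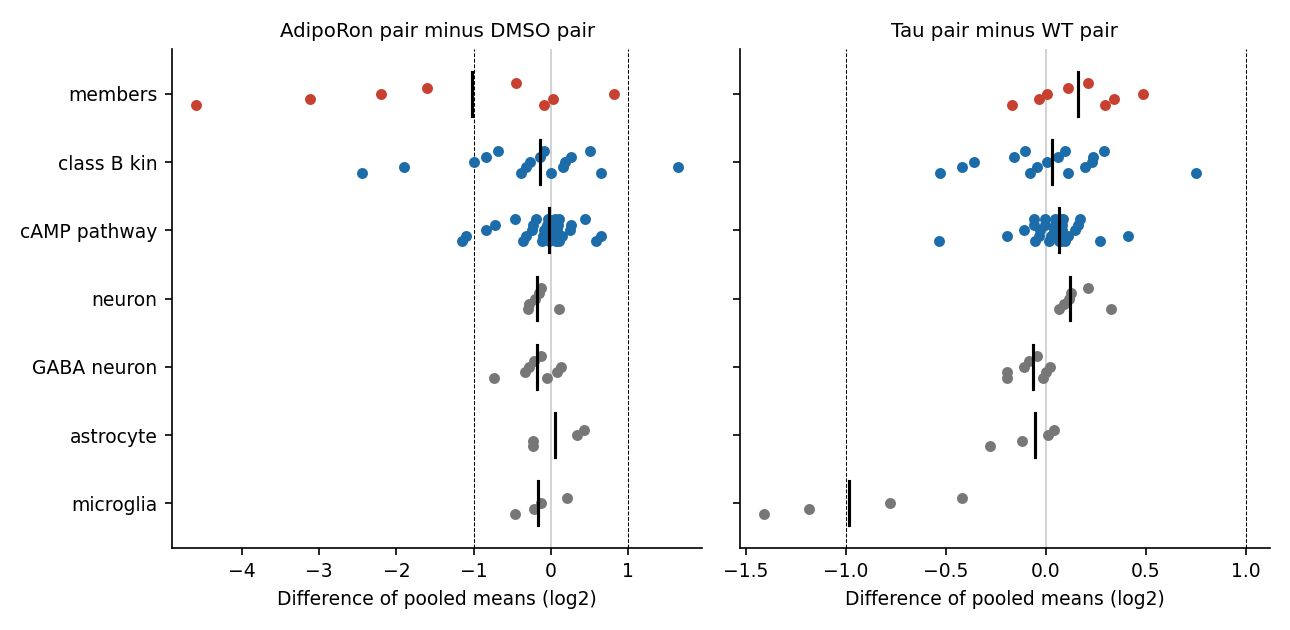
Difference of pooled means (log2) for the 8 members in red, related class B genes and the cAMP pathway in blue and cell type markers in grey, with black bars at the medians and dashed lines at 2-fold. Members reach -4.59 in the AdipoRon panel while neuron markers stay between -0.29 and 0.11, and in the Tau panel the microglia markers lie between -1.41 and -0.42.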

How the data were processed

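The authors' methods give adapter trimming, STAR alignment (mm10), RSEM for quantification and generalized linear models in edgeR, whereas the paper's results name GRCm39 and the tables are named after Rsubread. Library normalization and the filter on genes were not given in the sources used here. The deposited value used is the mean expression of a gene as log2 CPM over the samples of the groups of each table. The tables also hold the authors' fold changes, likelihood ratios, p-values, false discovery rates and calls, which were not used, and Entrez identifiers. Samples were grouped by their titles. The labels of WT AdipoRon samples name the table of DMSO-treated neurons, and the groups of a table were taken from its name.

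Pooled means were subtracted between tables that share no sample (Python 3.11.15, pandas 2.3.3). Taken as averages of CPM, they closed over the 4 tables with a log2 gap of 0.0049 (SD over 19399 genes, largest 0.0304). Taken as averages of log2 values, the largest gap was 1.56. The limits on group means rest on the average of CPM and include the prior count in the deposited means (at most 0.194 CPM, the highest of the lowest values of the tables). Transcript lengths came from GENCODE M39 and promoters from RefSeq (GRCm38.p6, 8 of 9 members matched). A protein comparison that had been planned was not run, and the list of oligodendrocyte markers is not reported here. Alternatives were 3 scalings, filters on low values, other sizes of difference, another length and other weights.

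Named were the 9 members, list genes past 2-fold (at most 5 per list), marker ranges and the 5 profiles nearest to Adcyap1. Any other gene (Gnas, Creb1, Crhr2, Ucn2, Ucn3, Gfap, Gad1 and Gad2) was chosen after values were seen. Members and lists were chosen with earlier results of these data known.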

Additional observations from a re-analysis of the deposited data

How the results depend on the processing

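No paired analysis was possible because the results come from no test and the tables hold no values per sample, and no sample could be left out. The member differences were recomputed under 3 scalings, and all 48 recomputed values lay within 0.1 of the main ones on the log2 scale. Of the counts of genes past 2-fold, those in the AdipoRon against DMSO pairs were 133 higher and 344 lower, which became 86 and 183 with genes over 0 log2 CPM, 568 and 973 at 1.5-fold, and 30 and 118 at 3-fold. In the Tau against WT pairs, 25 higher and 101 lower became 511 and 519 at 1.5-fold and 2 and 19 at 3-fold, and genes over 0 log2 CPM left 6 higher. With groups weighted equally, the smallest DMSO to AdipoRon ratio of Adcyap1 became 13.6 (Tau) and 9.45 (WT), with 4.18 and 3.48 for Crh, and 1.81 and 1.80 for Vip. Subtracting the largest prior count that the tables allow gave 13.1 and 12.1 for Adcyap1 and 4.24 and 4.88 for Crh. Weighting groups equally also turned the smallest ratio of Crhbp from 0.861 to 1.09 in Tau neurons and from 1.08 to 0.939 in WT neurons, so its direction within a genotype depends on the weights. With the longest transcript as length, Adcyap1r1 and Vip changed places in the DMSO pair (2 and 3).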

Other observations

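The limits on group means were also worked out for the genes nearest to Adcyap1 and for list genes past 2-fold. Both sets were picked by these same pooled means, so their ratios are a description. Lyve1 had a DMSO mean 6.92-fold or more above its AdipoRon mean in Tau neurons and 9.77-fold or more in WT neurons. For Nptx2 these ratios were 6.30 and 4.95, for Kcnv1 5.14 and 5.04, and for Pcsk1 3.61 and 3.63. Pth2r was above AdipoRon by 1.85-fold or more in Tau DMSO and 2.54-fold or more in WT DMSO, and Ramp3 by 1.14-fold and 1.52-fold. Glp2r went the other way, with an AdipoRon mean 1.20-fold or more above DMSO in Tau and 1.03-fold or more in WT neurons, but with groups weighted equally the WT ratio was 0.983 and its direction was not settled. For Adcy8, Pde4c and Adm2 the limits gave no direction within a genotype. These are ratios of means without replicate error.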
